A study of Mus musculus with 12 samples.

Results

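A set of 10 plasma cell and immunoglobulin constant genes was read in the inguinal stromal vascular fraction (SVF). This fraction is what remains of fat tissue when the adipocytes have been floated off. The 10 genes are the heavy chain constant genes Igha, Ighm, Ighg1, Ighg2b, Ighg2c and Ighg3, the light chain constant genes Igkc and Iglc1, and the plasma cell genes Jchain and Mzb1. They were 10 of the 55535 genes measured and were taken by name, having been chosen by how their measured values differed between the ages and genotypes compared here, so their own differences are given as a description and without a test. Poly(A) RNA came from the inguinal SVF of 12 males of mixed C57BL6/J-129SV background kept at room temperature, with 1 library per mouse. There were 4 controls of 2 months, 4 controls of 12 months and 4 Pdgfrb-KO mice of 12 months. The labels call the controls wild type, and the study's methods describe its control mice as carrying Sma-CreERT2 with a Rosa26 reporter. The Pdgfrb-KO mice add Pdgfrb fl/fl alleles to that model, and tamoxifen starts the deletion. Because the Sma promoter drives Cre in smooth muscle cells and the progenitors derived from them, the deletion is not aimed at B cells or plasma cells, and Pdgfrb is read here from all SVF cells together.

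B cells carry IgM and IgD on their surface. When activated, they can exchange the constant part of the heavy chain, which turns the antibody into an IgG, IgE or IgA without changing what it binds. Plasma cells are the end stage of this lineage: they enlarge the endoplasmic reticulum and secrete antibody in bulk. A few of them can thus supply much of the immunoglobulin RNA in a tissue. The joining chain, encoded by Jchain, links IgA into dimers and IgM into larger polymers, and IgA is the class best known from mucosal surfaces such as gut and airway.

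The heavy chain constant genes lie in 1 cluster on the minus strand of chromosome 12 (GRCm38), in the order Ighm, Ighd, Ighg3, Ighg1, Ighg2b, Ighg2c, Ighe and Igha along the direction of transcription. Ighm spans chr12:113418558-113422730 and Igha, at the far end, chr12:113254830-113260236. Igkc lies at chr6:70726435-70726966, Iglc1 at chr16:19061618-19062071 and Jchain at chr5:88519809-88527891. How far reads can tell these genes apart depends on how alike they are. The first 75 bases of the first constant exon are shown for the 4 IgG genes, from GENCODE vM21 on GRCm38, with every base that differs from Ighg2b in capitals.
Ighg2b: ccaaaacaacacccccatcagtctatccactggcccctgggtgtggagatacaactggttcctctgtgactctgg
Ighg2c: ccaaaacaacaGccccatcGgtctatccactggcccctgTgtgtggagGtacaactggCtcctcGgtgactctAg
Ighg1: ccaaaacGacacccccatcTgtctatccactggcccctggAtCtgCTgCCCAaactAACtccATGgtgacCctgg
Ighg3: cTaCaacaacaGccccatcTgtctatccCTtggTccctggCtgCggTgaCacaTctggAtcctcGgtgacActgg
Ighg2c differs from Ighg2b at 7 of these 75 bases, Ighg3 at 15 and Ighg1 at 17. Over the secreted transcripts Ighg2b and Ighg2c were 86.4% identical and the other IgG pairs between 75% and 77.0%. Of all 50-base windows of Ighg2b, 5.3% also occurred in Ighg2c, while Igha, Ighm, Ighg1, Ighg3, Igkc, Iglc1 and Jchain held no window that occurred in another of these transcripts. The lambda genes not among the 10 are closer still, with 95.4% identity between Iglc2 and Iglc3, so their counts cannot be fully kept apart. The 129 strains carry the Ighg2a allele in place of Ighg2c, and which allele each mouse carries is not given, so values of Ighg2c may depend on it. The start of Igha, the gene with the widest range over the libraries, and of Ighm, read over the same length, were these.
Igha: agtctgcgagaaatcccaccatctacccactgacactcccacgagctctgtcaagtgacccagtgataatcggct
Ighm: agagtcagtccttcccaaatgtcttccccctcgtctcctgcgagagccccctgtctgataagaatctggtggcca

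The values are counts divided by a size factor of the library and rounded, here called normalized counts. They summed to between 19616724 and 21872460 per library. As a check of the labels, Pdgfrb read 1882, 2145, 1707 and 1749 in the Pdgfrb-KO libraries against 3000, 4380, 3258 and 2399 in the 12-month controls, with no overlap (log2 difference -0.77 ± 0.17 SE, adjusted p = 0.016, limma). Over all genes, 1853 of 16398 tested (11.3%) were higher at 12 months and 1874 (11.4%) lower. That is 49.7% of the calls in the higher direction, against 60.4% when libraries were rescaled to equal totals without immunoglobulin genes. The median log2 difference over all genes tested then moved from -0.008 to 0.035. This setting also evened out the totals, which ran from 20253638 to 21334744 at 2 months and from 19898947 to 20577043 in the 12-month controls. The immunoglobulin constant genes held 0.0601% to 0.0931% and 0.215% to 0.324% of these totals. Evening out the totals and leaving out these genes were not tested apart. In the knockout comparison 809 of 16343 genes (4.95%) were higher and 729 (4.46%) lower. Both comparisons use the same 12-month control libraries. Markers of the labelled tissue were present in every library, Ptprc among them at 9839 to 21428. The lowest of these was 12-month control replicate 2. Pdgfrb-KO replicate 2 was the lowest of its group for 8 of the 10 genes described here, and the differences that turn on it are given without it as well.

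The antibody genes were a far larger part of the RNA at 12 months than at 2 months. The 10 genes together held 0.0671% ± 0.0115 (SD, n = 4) of the normalized counts at 2 months, 0.273% ± 0.0543 in 12-month controls and 0.341% ± 0.138 in Pdgfrb-KO libraries. In bulk tissue, more plasma cells and more immunoglobulin RNA in each of them cannot be told apart. Of the 10 genes, 5 did not overlap between the ages and were higher at 12 months: Igha, Jchain, Igkc, Ighg2b and Ighg2c. Among all genes tested for age, 12.3% showed such a gap in that direction. Since the 10 genes were selected on this contrast, nothing is read from the count.

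**Figure D1:**
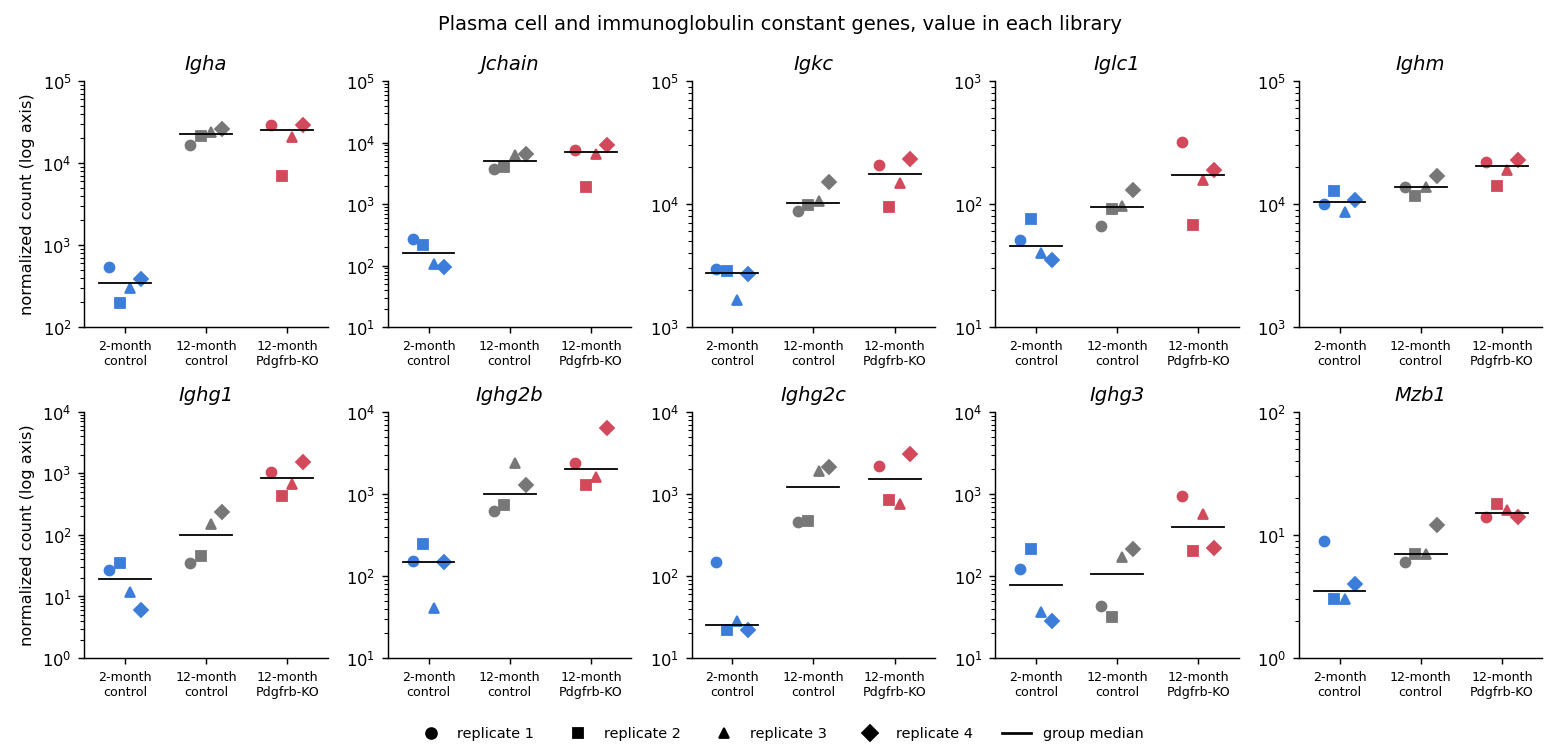
Normalized count (log axis) of each of the 10 genes in each library, by group, with a marker shape for each replicate number and a line at the group median. Igha sits between 196 and 541 in the 2-month libraries and between 16641 and 26356 in the 12-month controls, and Pdgfrb-KO replicate 2 is the lowest Pdgfrb-KO library for Igha, Jchain, Igkc, Iglc1, Ighm, Ighg1, Ighg2b and Ighg3.

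Igha, the constant region of IgA, had the widest span. It read 541, 196, 298 and 386 in the 4 libraries of 2 months and 16641, 21391, 23789 and 26356 in the 4 controls of 12 months. The groups were far apart, with a ratio of means of 62.1 and a log2 difference of 6.03 ± 0.26 (SE) that stayed between 5.77 and 6.26 when any 1 library was left out. Jchain, whose product joins IgA and IgM into polymers, was likewise higher in the 12-month controls than at 2 months. It read 267, 216, 108 and 94 at 2 months and 3669, 4023, 6176 and 6640 in the 12-month controls, a ratio of means of 29.9 and a log2 difference of 4.99 ± 0.35. The highest 2-month library was thus far under the lowest 12-month control for both genes. Per kilobase of exon, Jchain stood at 0.199 to 0.275 of the level of Igha in the 12-month controls and at 0.272 to 0.331 in the Pdgfrb-KO libraries. At 2 months the ratio ran from 0.258 to 1.17, and the libraries did not keep one proportion.

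**Figure D2:**
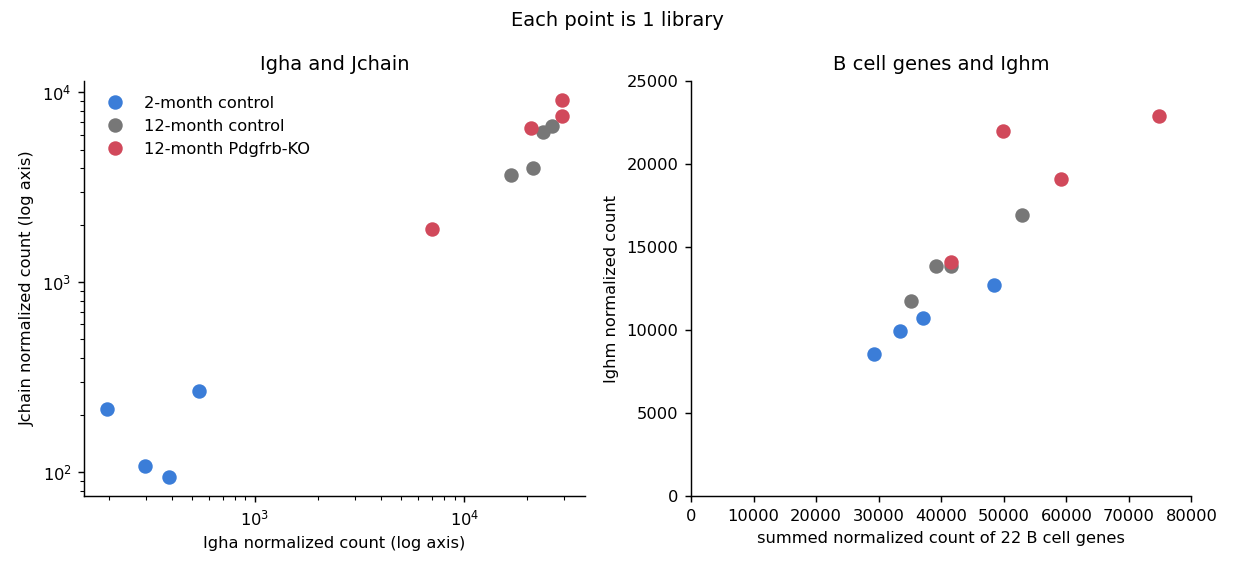
Left, Jchain against Igha (normalized counts, both axes log); right, Ighm against the sum of 22 B cell genes (normalized counts), with each point 1 library and a colour for each group. The 2-month libraries lie apart at the low end on the left, with Pdgfrb-KO replicate 2 (6979 for Igha, 1905 for Jchain) below the other 12-month libraries, while on the right the groups adjoin or overlap.

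Of the light chains, the kappa constant gene Igkc read 2967, 2841, 1666 and 2694 at 2 months and 8758, 9838, 10693 and 15021 in the 12-month controls. Those groups did not overlap, with a ratio of means of 4.36 and a log2 difference of 2.13 ± 0.19. The lambda gene Iglc1, a minor light chain in mice, read 51, 76, 40 and 35 at 2 months and 66, 91, 97 and 129 in the 12-month controls. Its groups overlapped in 1 library each, with a log2 difference of 0.93 ± 0.26. Igkc made up 90.6% ± 2.04 (SD, n = 4) of the summed light chain level per kilobase at 2 months and 96.3% ± 0.514 in the 12-month controls, and the 2 ranges did not meet (88.0% to 92.8% against 95.7% to 96.8%). The kappa part of the light chains was therefore higher at 12 months in 4 of 4 libraries. The other lambda genes moved less than Igkc: Iglc3 had a log2 difference of 0.89 ± 0.25 (adjusted p = 0.024, limma), a call kept in 4 of 8 fits that left out 1 library, and Iglc2 one of 0.44 ± 0.22 (adjusted p = 0.18).

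Ighm, the heavy chain of IgM, moved little beside these. It read 9930, 12700, 8553 and 10753 at 2 months and 13832, 11725, 13843 and 16934 in the 12-month controls, with a log2 difference of 0.43 ± 0.14. Its groups overlapped, and 2-month replicate 2 exceeded 12-month replicate 2. Ighd, made with Ighm by resting B cells from 1 long transcript, read 1648 to 2729 and 2154 to 3445 (log2 difference 0.46 ± 0.18, adjusted p = 0.079, limma). The ratio of Ighm to Ighd per kilobase was 5.47 ± 0.683 at 2 months and 5.36 ± 0.751 in the 12-month controls. B cell genes were present in every library: the 22 genes of a B cell list summed to 29206 to 48493 at 2 months and to 35196 to 52859 in the 12-month controls. Of these 22 genes, 2 rose with age and 0 fell at the threshold, while 11.3% of all genes tested were called higher. The list median was 0.19 on the log2 scale against -0.008 over all genes tested. Ly6d, a surface protein of the B lineage, rose 1.64-fold (adjusted p = 0.0037).

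The IgG genes had lower levels and a wider spread. Ighg2b read 154, 245, 41 and 146 at 2 months and 613, 723, 2400 and 1288 in the 12-month controls, with a log2 difference of 3.13 ± 0.62. Ighg2c read 148, 22, 28 and 22 at 2 months and 452, 467, 1929 and 2109 in the 12-month controls, a log2 difference of 4.63 ± 0.79. For both genes every 12-month control lay above every 2-month library. Among the 12-month controls Ighg2c was low in replicates 1 and 2 and high in replicates 3 and 4. Ighg1, the IgG linked in mice to type 2 responses, read 27, 35, 12 and 6 at 2 months and 35, 46, 152 and 239 in the 12-month controls. Its groups touched at 35, and its log2 difference was 2.35 ± 0.64. Ighg3, an IgG often made without help from T cells, read 121, 213, 36 and 28 at 2 months and 43, 32, 168 and 212 in the 12-month controls. Those ranges lay over each other, and the log2 difference of 0.22 ± 0.82 fell to -0.22 without 12-month control replicate 4 or 2-month replicate 4, to -0.11 without 12-month control replicate 3 and to -0.10 without 2-month replicate 3. Within the IgG sum per exonic kilobase, Ighg3 held 25.3% ± 11.7 at 2 months and 2.81% ± 0.740 in the 12-month controls, without overlap. The share of Ighg2c was 28.7% ± 18.4 and 60.1% ± 7.39, and that of Ighg2b 40.4% ± 18.1 and 34.3% ± 8.84. The annotated exons of Ighg2c span 1326 bases and those of Ighg2b 2678, while their secreted transcripts span 1111 and 1114. Divided by the secreted lengths instead, Ighg2c held 43.1% ± 7.93 in the 12-month controls and Ighg2b 48.8% ± 10.5. Which of them led there thus depends on the length used.

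Mzb1 encodes a helper of antibody assembly in the endoplasmic reticulum of marginal zone B cells and plasma cells. It was close to the floor of detection. It read 9, 3, 3 and 4 at 2 months, 6, 7, 7 and 12 in the 12-month controls, and 14, 18, 16 and 14 in the Pdgfrb-KO libraries. It did not pass the minimum for the age comparison and passed it for the knockout comparison through the 4 Pdgfrb-KO libraries, so its gap there (log2 difference 0.91 ± 0.34) follows in part from the minimum itself. In the annotation 57.2% of its exonic bases are shared on the same strand with a second gene model, SPATA24, which was at 0 in all 12 libraries. A read that falls in such shared bases can be left uncounted, and how the counts treated those reads is not given in the sources used here, so the level of Mzb1 is uncertain. The rare IgE gene Ighe was at 0 in all 2-month libraries, read 0, 0, 5 and 12 in the 12-month controls and 81, 8, 4 and 10 in the Pdgfrb-KO libraries.

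Put as shares, IgM and IgD made up most of the heavy chain RNA at 2 months, and IgM and IgA most of it at 12 months. Each value was divided by the exonic length of its gene and by the sum over the 8 heavy chain constant genes. Ighm held 81.0% ± 1.84 at 2 months and 40.5% ± 5.11 in the 12-month controls, and Ighd held 13.2% to 17.0% and 7.41% to 7.91%. Igha held 3.06%, 0.869%, 2.01% and 2.12% at 2 months and 40.8%, 49.8%, 44.0% and 43.1% in the 12-month controls. The 12-month controls were alike in this share although their Igha counts differed, and no 2-month library came near them. The 4 IgG genes together held 2.03% ± 1.13 and 7.50% ± 4.18. These shares depend on the length used, because the annotated exons include those of the membrane form. Divided by the length of the secreted transcript instead, the share of Igha was 3.33% ± 1.49 at 2 months and 56.9% ± 3.62 in the 12-month controls. On that scale Igha stood at 2.14 ± 0.369 of the level of Ighm in the 12-month controls, against 1.11 ± 0.192 per exonic kilobase, so that which of them led by level is clear only for the secreted lengths. The IgG sum no longer kept the ages apart with the secreted lengths.

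**Figure D3:**
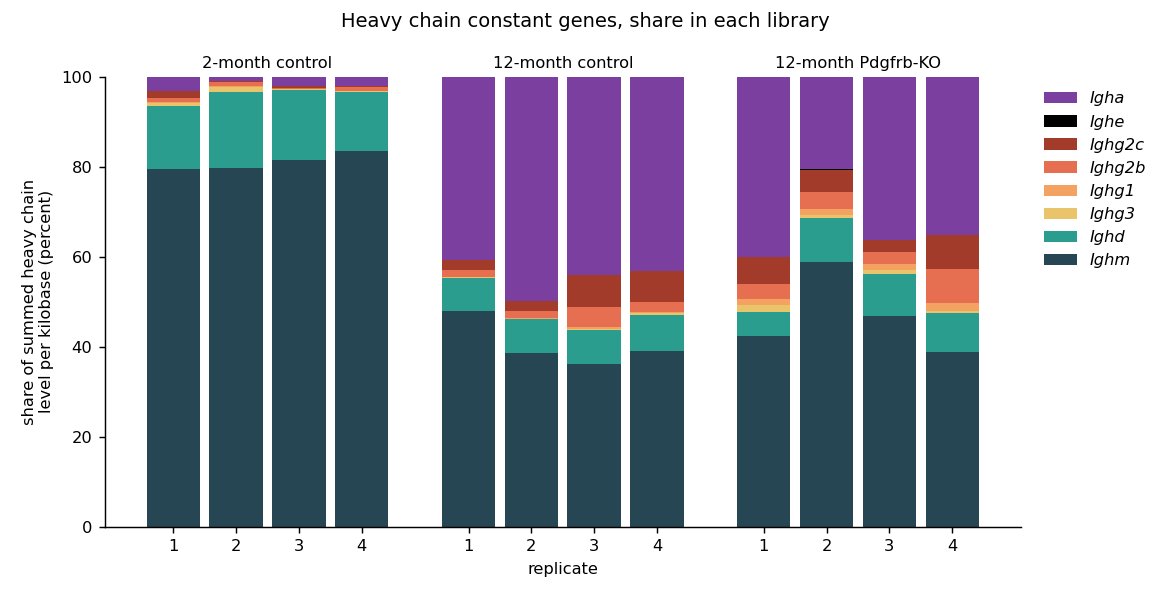
Share of each heavy chain constant gene in the summed heavy chain level per exonic kilobase (percent), 1 bar per library, grouped by age and genotype. Igha takes 0.869% to 3.06% of the 2-month bars, 40.8% to 49.8% of the bars of 12-month controls and 20.6% to 40.0% of the Pdgfrb-KO bars, while Ighm takes 79.4% to 83.4% of the 2-month bars; Ighe, at most 0.186% of a bar, is too thin to be read from the plot.

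Between the genotypes, Igha and Jchain overlapped, and the widest gap was that of Ighg1, which was higher in the Pdgfrb-KO libraries. Igha read 29285, 6979, 20916 and 29216 in the Pdgfrb-KO libraries, a range that contained all 4 controls of 12 months, with a log2 difference of -0.21 ± 0.39. Jchain read 7525, 1905, 6518 and 9133, with a log2 difference of 0.12 ± 0.42. Pdgfrb-KO replicate 2 was the low library for both genes. Without it the log2 difference was 0.27 for Igha and 0.63 for Jchain. Leaving out any other library kept Igha between -0.42 and -0.12, while Jchain went to -0.13 without Pdgfrb-KO replicate 4, to -0.04 without Pdgfrb-KO replicate 1 and to -0.02 without 12-month control replicate 1. Pdgfrb-KO replicate 2 read highest for Mzb1. Its B cell genes summed to 41641, the lowest of the 4 Pdgfrb-KO libraries and inside the range of the 12-month controls.

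Ighg1 read 1044, 429, 669 and 1517 in the Pdgfrb-KO libraries against 35 to 239 in the 12-month controls. All 4 Pdgfrb-KO libraries lay above all controls of either age, with a ratio of means of 7.75 and a log2 difference of 3.21 ± 0.57, between 2.78 and 3.69 when any 1 library was left out. Ighg1 and Mzb1 were the 2 of 10 genes without overlap in that direction, beside 9.04% of all genes tested in the comparison. The 10 genes were selected on this contrast too, and Mzb1 passed the minimum through the Pdgfrb-KO libraries, so nothing is read from the count. Ighg3 read 943, 201, 571 and 219 against 32 to 212, overlapping with 1 control, with a log2 difference of 2.21 ± 0.65. Ighg2b read 2377, 1278, 1619 and 6367, with a log2 difference of 1.13 ± 0.51. Ighg2c read 2172, 845, 748 and 3092, with one of 0.58 ± 0.59. The last 2 overlapped with the controls, and the Ighg2c difference was about as large as its error. Within the IgG sum per kilobase the share of Ighg1 was 2.25% to 4.10% in the 12-month controls and 10.9% to 15.6% in the Pdgfrb-KO libraries, and that of Ighg2c was 54.0% to 70.7% and 34.1% to 49.6%. Both pairs of ranges were apart, also with the lengths of the secreted transcripts.

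**Figure D4:**
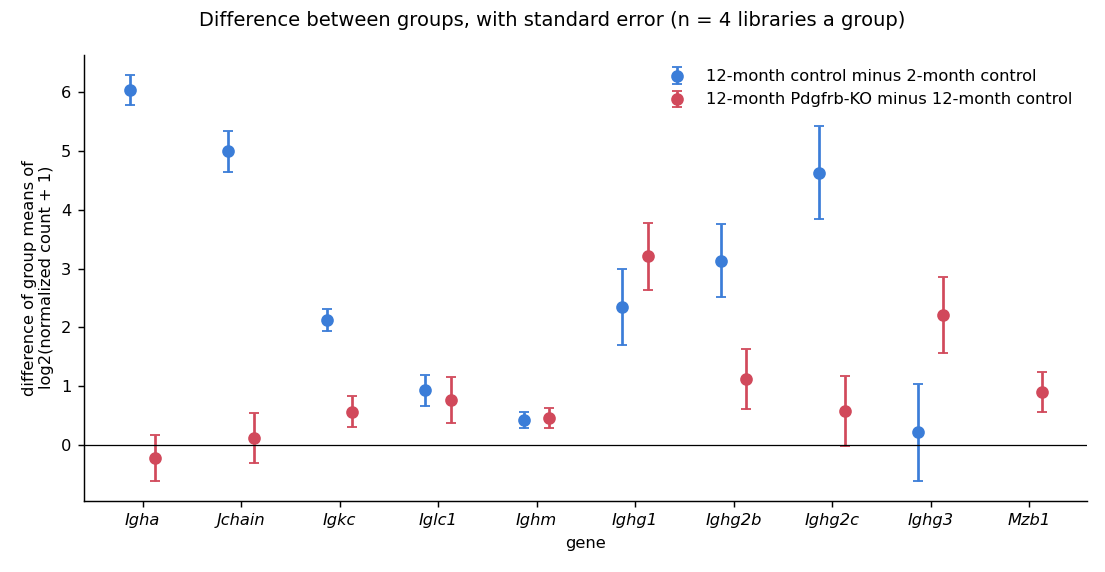
Difference between group means of log2(normalized count + 1) for each of the 10 genes, with bars of 1 standard error (n = 4 libraries a group), for 12-month controls minus 2-month controls (blue) and for Pdgfrb-KO minus 12-month controls (red); Mzb1 did not pass the minimum for age. Igha and Jchain have the largest age differences (6.03 and 4.99) and knockout differences near 0 (-0.21 and 0.12), while Ighg1 has a knockout difference of 3.21.

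Ighm read 22015, 14095, 19080 and 22897 in the Pdgfrb-KO libraries, with a log2 difference of 0.46 ± 0.17, and Igkc read 20616, 9497, 14753 and 23239, with one of 0.57 ± 0.26. Iglc1 read 321, 68, 156 and 191, with a log2 difference of 0.77 ± 0.39. These groups overlapped with the controls, through Pdgfrb-KO replicate 2 for Ighm and Iglc1 and through replicates 2 and 3 for Igkc. Among the B cell genes, 2 of 22 rose and 0 fell, while 4.95% of all genes tested were called higher. Their median was 0.42 against -0.013 over all genes tested. The count of B cell genes called was 0 without 12-month control replicate 2 or 3 or Pdgfrb-KO replicate 1. Vpreb3, a gene of the B lineage, rose 1.89-fold (adjusted p = 0.03, limma), a call kept in 4 of 8 fits that left out 1 library. In shares per exonic kilobase, Igha held 40.0%, 20.6%, 36.2% and 35.1% of the heavy chains in the Pdgfrb-KO libraries. All 4 were under the 12-month controls, though the highest fell short of the lowest control by less than 1 percentage point. Igkc held 95.2% to 97.4% of the light chains, a range that held that of the 12-month controls. The ratio of summed light chains to summed heavy chains per kilobase was 0.765 ± 0.126 at 2 months, 1.16 ± 0.105 in the 12-month controls and 1.43 ± 0.0571 in the Pdgfrb-KO libraries, without overlap between neighbouring groups. With the secreted lengths the ages overlapped in this ratio and the genotypes did not.

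The variable segments are joined to these constant genes in the same transcripts, so their sums are no independent reading. The sum over 185 Ighv genes was 757 to 1290 at 2 months, 3048 to 5835 in the 12-month controls and 1834 to 7798 in the Pdgfrb-KO libraries. That over 160 Igkv genes was 1560 to 2758, 4170 to 8588 and 3132 to 12045. Both sums kept the ages apart and the genotypes together.

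Other genes of plasma cells had smaller differences, and several are used by other cells of the fraction too. Of 16 plasma cell identity genes, 5 rose and 2 fell with age, with a median of 0.19. Among all genes tested, 11.3% were called higher and 11.4% lower with age, and 4.95% and 4.46% in the knockout comparison. The list counts below are to be read beside these shares. Tnfrsf17, which encodes the survival receptor BCMA and is close to exclusive to plasma cells, read 8, 5, 5 and 7 at 2 months and 12, 45, 19 and 46 in the 12-month controls, a 3.84-fold difference (adjusted p = 0.0078, limma). Since no 2-month library reached 10, Tnfrsf17 entered the age comparison only through the 12-month controls, so its call follows in part from the minimum itself. It read 103, 88, 48 and 41 in the Pdgfrb-KO libraries (log2 difference 1.27 ± 0.46, adjusted p = 0.10). Txndc5, an oxidoreductase of the endoplasmic reticulum, rose 1.37-fold with age (adjusted p = 0.0039). Both calls were kept in all 8 fits that left out 1 library, and the other 5 calls, Tnfrsf13b, Derl3 and Fcrl5 among the higher and Irf4 and Prdm1 among the lower, were each lost in some of them. Irf4 and Prdm1 encode transcription factors that drive plasma cell formation and are also used by T cells and myeloid cells. Xbp1, the factor that widens the secretory pathway, had a log2 difference of 0.23 ± 0.09 (adjusted p = 0.080), and Sdc1, which encodes the plasma cell surface proteoglycan syndecan 1 and is also made by epithelium and stroma, one of -0.26 ± 0.09 (adjusted p = 0.063). In the knockout comparison 1 of the 16 genes, Tnfrsf13b, rose (1.59-fold, adjusted p = 0.031, kept in 2 of 8 fits that left out 1 library) and 0 fell.

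Genes of protein folding and secretion were abundant in all libraries. Of 32, 8 rose and 0 fell with age, with a median of 0.16, and 8 rose and 1 fell in the knockout comparison, with a median of 0.34. Sdf2l1, a partner of the chaperone BiP, rose 1.59-fold with age (adjusted p = 0.0009) and 1.77-fold in the Pdgfrb-KO libraries (adjusted p = 0.0013). Prdx4, a peroxidase of the same compartment, rose 1.53-fold with age (adjusted p = 0.0059) and 2.13-fold in the Pdgfrb-KO libraries (adjusted p = 0.0058). Edem2, Creld2 and Spcs2 rose 1.54-, 1.64- and 1.45-fold in the Pdgfrb-KO libraries (adjusted p of 0.0028, 0.004 and 0.0071). All these calls were kept in all 8 fits that left out 1 library. Hspa5, which encodes BiP itself, read 37624 to 59226 over the 12 libraries and passed the test in neither comparison. Fibroblasts use these genes as well. The collagen gene Col1a1, also a secreted product, was lower with age (log2 difference -1.81) and higher in the Pdgfrb-KO libraries (1.54). Dcn, another stromal gene, went the other way in both comparisons (0.90 and -0.67). Of the 11 marker genes of the labelled tissue, which include both, 5 rose and 2 fell with age, and 2 rose and 2 fell in the knockout comparison. The part of plasma cells in the values of this list was not tested.

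Among 18 factors of IgA switching and plasma cell survival, 14 could be tested for age, where 4 rose and 1 fell. In the knockout comparison 15 could be tested, where 2 rose, 1 fell and 12 did not pass. Tnfsf13b, which encodes the survival factor BAFF, rose 1.96-fold (adjusted p = 0.0015), from 72 to 108 at 2 months to 159 to 205 in the 12-month controls. Il10, an anti-inflammatory cytokine that can promote plasma cell differentiation, rose 3.16-fold with age (adjusted p = 0.00085) and 2.78-fold more in the Pdgfrb-KO libraries (adjusted p = 0.0094), where it read 595, 297, 281 and 204 against 88 to 133. Aldh1a3, an enzyme that makes retinoic acid, rose 2.66-fold with age (adjusted p = 0.0011) and fell 2.29-fold in the Pdgfrb-KO libraries (adjusted p = 0.0041). Il6 fell 1.60-fold with age (adjusted p = 0.0019). Tnfsf13, which encodes APRIL, the ligand of BCMA, stayed between group means of 25.5 and 29.2 and passed the test in neither comparison (adjusted p of 0.68 and 0.71).

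Receptors that bind antibody were also read. Of 10, 5 rose and 0 fell with age, and 6 rose and 0 fell in the knockout comparison, with medians of 0.65 and 0.82. Fcer1a, the IgE receptor chain of mast cells and basophils, rose 6.75-fold with age (adjusted p = 0.0002), from 7 to 17 at 2 months to 47 to 118 in the 12-month controls. Fcgr1 and Fcgr2b, receptors for IgG, rose 3.33- and 1.85-fold in the Pdgfrb-KO libraries (adjusted p of 0.00076 and 0.0051), and Fcgrt, which recycles IgG, rose 1.57-fold with age (adjusted p = 0.0024). Not all 4 passed in both comparisons. Fcer1a had a knockout log2 difference of 0.30 ± 0.26 (adjusted p = 0.5, limma), and Fcgr1 an age difference of 0.58 ± 0.23 (adjusted p = 0.096). Fcgr2b and Fcgrt were called higher in both. Adgre1, a macrophage marker, rose 2.31-fold with age (adjusted p = 0.0011) and 2.00-fold in the Pdgfrb-KO libraries (adjusted p = 0.0067). The part of macrophages in the receptor values was not tested. Pigr, which carries joined IgA and IgM across epithelium, read 23 to 69 over the 12 libraries. It rose 1.82-fold in the Pdgfrb-KO libraries (adjusted p = 0.043), a call kept in 1 of 8 fits that left out 1 library. Of 7 homing receptors of plasma cells, 1 rose and 0 fell with age, and 0 rose and 1 fell in the knockout comparison. Cxcr3 rose 1.72-fold with age (adjusted p = 0.0086), Ccr9, used in homing to the gut, fell 2.22-fold in the Pdgfrb-KO libraries (adjusted p = 0.025, kept in 3 of 8 fits that left out 1 library), and Ccr10, used by IgA plasma cells, had a log2 age difference of 0.36 ± 0.25 (adjusted p = 0.32). Of 10 genes of germinal centres and class switching, 1 rose with age and 1 in the knockout comparison.

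The inguinal depot holds a lymph node, a place where B cells gather, so its markers were read beside the antibody genes. Of 13 such genes, 10 could be tested in each comparison; 2 rose and 2 fell with age, and 4 rose and 0 fell in the knockout comparison. Glycam1 and Madcam1, markers of high endothelial venules, fell 3.14- and 4.11-fold with age (adjusted p of 0.00096 and 0.00068). Glycam1 read 121, 189, 149 and 95 at 2 months, 47, 32, 34 and 61 in the 12-month controls and 263, 216, 257 and 109 in the Pdgfrb-KO libraries. It was 4.66-fold higher in the Pdgfrb-KO libraries than in the 12-month controls (adjusted p = 0.0017). Other genes of the list differed with age in the other direction: Cr2, of follicular dendritic cells and B cells, rose by 0.58 ± 0.17 on the log2 scale (adjusted p = 0.029) and Bst1 rose 1.66-fold (adjusted p = 0.031), each kept in 3 of 8 fits that left out 1 library, and 8 of the 10 genes tested had a difference above 0, with a median of 0.12. The list summed to 6091 to 7337 at 2 months, 6401 to 9375 in the 12-month controls and 8102 to 10778 in the Pdgfrb-KO libraries, and Ccl21a was at 0 in all 12. The part of lymph node tissue in the immunoglobulin values was not tested. Of 6 epithelial genes, 0 were called for age. In the knockout comparison 4 of them could be tested and 1, Krt8, fell (adjusted p = 0.04), a call kept in 2 of 8 fits that left out 1 library and with an adjusted p of up to 0.16 under the other settings. Krt14, an epithelial keratin, read 5 to 532 in the 12-month controls and 0 in all Pdgfrb-KO libraries.

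Jchain was compared with 13969 other genes over the 12 libraries. Of the other 9 genes described here Igha was the most alike (Pearson r = 0.981 on log2 values), followed by Igkc (0.970), Ighg2c (0.951) and Ighg2b (0.921), with Mzb1 (0.735) and Ighg3 (0.529) the least. After the group means were subtracted, r with Jchain was 0.847 for Iglc1, 0.830 for Igkc, 0.808 for Ighg1, 0.746 for Ighm and 0.720 for Igha. All libraries of an age share their age, so these values describe the libraries and carry no test. Outside the immunoglobulin genes, the 10 most alike over all libraries were Nceh1, Mndal, Klrb1b, Cd209e, Klra4, Klra8, Casp1, Ifi213, Sult1e1 and Ifi205, with r from 0.948 to 0.976. Klra4 and Klra8, receptors of natural killer cells, read 0 in all 4 libraries of 2 months, 23 to 54 and 55 to 78 in the 12-month controls and 29 to 56 and 30 to 62 in the Pdgfrb-KO libraries. Mndal, of the interferon-inducible Ifi200 family, read 109 to 144 at 2 months and 1596 to 3514 at 12 months in both genotypes. Both gene families are known to differ in content between C57BL/6 and 129 mice, the parent strains of this colony. Strain alleles that differ between the ages would move with the same split, and their part in the immunoglobulin values was not tested. After group means were subtracted, the 10 most alike genes were Cdk6, Map3k15, Il12a, Ncapg2, Dapp1, Lpar3, Samhd1, Tnfsf13, Dpp10 and Trim34a, with r from 0.867 to 0.929.

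RefSeq lists a promoter for 1 of the 10 genes, Jchain, here from 250 bases before to 50 bases after its start at chr5:88527848-88528147 on the minus strand (GRCm38.p6). It is shown because Jchain is a plasma cell gene outside the immunoglobulin loci with an age difference next to that of Igha, and the 1 motif found is in capitals.
Jchain promoter: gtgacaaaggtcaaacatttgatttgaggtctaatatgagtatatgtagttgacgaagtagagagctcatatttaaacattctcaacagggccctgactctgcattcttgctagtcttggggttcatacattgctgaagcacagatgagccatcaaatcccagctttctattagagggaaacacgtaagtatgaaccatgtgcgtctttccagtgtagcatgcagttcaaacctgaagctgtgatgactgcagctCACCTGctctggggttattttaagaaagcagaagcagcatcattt
In all, 4 motifs were searched on both strands. The E-box CACCTG occurred 1 time, 5 bases after the start, and 20.2% of 32851 promoters of this length hold it. The octamer ATTTGCAT (in 1.7% of promoters), the PU.1 core GAGGAA (28.3%) and the TATA box TATAAA (13.6%) did not occur in this window.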

How the data were processed

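Values of inguinal SVF RNA from 12 mice were analysed. The authors used STAR 2.7.0e with GRCm38, after Trim Galore 0.6.0, cutadapt and FastQC, and DESeq2 1.26.0, as the submitters' processing notes list them. The deposited values are scores: gene counts that were divided by library size factors, then rounded. The counting tool, its strand setting and the annotation are not given in the sources used here, and size factors make totals alike, so depth per library is not shown by them. One table holds both control ages and the other the 12-month controls and Pdgfrb-KO, with equal values for the shared libraries in 100% of genes. No sample column was left unused (0 others).

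Each comparison was fitted on its 8 libraries with limma 3.58.1 (R 4.3.3, trend and robust) on log2(value + 1), and two-sided p-values were adjusted by Benjamini-Hochberg over all genes tested, with calls under 0.05. A gene was tested when 4 or more of the 8 libraries reached 10. A log2 difference on this scale understates changes of low genes. A count model was not run because the values are not counts. The fit was tested on simulated data. Each library is labelled as 1 biological replicate. Replicate numbers were not treated as pairs, since same-numbered libraries did not deviate together in every pair.

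Levels per kilobase used the union of exons in GENCODE vM21, and the lengths of secreted transcripts were added after the data were seen. The genes and lists were chosen with earlier results of these data known, so list counts are descriptive. Named were the 10 genes, the other constant genes, list genes given beside their list's count, Pdgfrb, and the 10 genes most like Jchain (mean of at least 10, without antigen receptor segments, predicted genes and pseudogenes) over all libraries and within groups. Calls in lists were singled out after their leave-one-out fits were seen. Alternatives were pseudocounts of 0.5 and 5, no filter, a mean of at least 50, rescaling without immunoglobulin genes, limma with neither trend nor robust estimation, quantile normalization, the replicate block and each library left out. Tables and figures were made with Python 3.11.15, pandas 2.3.3 and matplotlib 3.10.9, and sequences were compared with Biopython 1.88. Some genes of the lists are not reported here by name.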

Additional observations from a re-analysis of the deposited data

Results flagged for a closer look

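In each group of 4 libraries, a library was marked when its gap to the nearest other exceeded Dixon's limit, looking at 93 groups of values of the antibody genes, Pdgfrb and the class shares, of which 9 were marked; chance alone marks about 1 group in 20. At 2 months, replicate 1 stood apart for Ighg2c (148 against 22 to 28), for the share of Ighg2c among heavy chains (1.68%) and for Mzb1 (9), and replicate 2 for Ighd (2729) and for the share of Iglc3 among light chains (4.30%). In the 12-month controls replicate 4 stood apart for Mzb1 (12). In the Pdgfrb-KO libraries replicate 1 stood apart for Ighe (81) and its share (0.186%), and replicate 2 for Iglc3 (91). Pdgfrb-KO replicate 2, low for Igha at 6979, was not marked for that gene.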

How the results depend on the processing

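The log2 differences of the 10 genes, with Mzb1 for the knockout comparison only, were set against the spread between replicates. They moved by less than it under both pseudocounts, the rescaling, quantile normalization and each library left out. Leaving out single libraries still turned the sign for Ighg3 (age) and for Igha and Jchain (knockout), as given above. The filters, limma without trend and robust estimation and the replicate block cannot change these differences, so they are no check of them. Genes called for age numbered 3727, and 2405 to 4018 without any 1 library. The 2405 came without 2-month control replicate 4. For the knockout comparison they numbered 1538, 873 to 1920 without any 1 library, and 2379 with the replicate block; without 12-month control replicate 1, 2 or 3 or Pdgfrb-KO replicate 1 they numbered 905, 895, 873 and 926. Same-numbered libraries correlated (r of their deviations) at between -0.216 and 0.157 for age and between -0.018 and 0.375 for the knockout comparison, and not every library was most like its own number, so the block is a hint at most. List counts moved more. Of the plasma cell genes, 5 were higher with age; this was 2 with a mean of at least 50, 3 without trend and robust estimation, 3 with the replicate block and 2 to 5 without any 1 library. In the knockout comparison 1 was higher, 0 when rescaled without immunoglobulin genes, 0 without trend and robust estimation, and 0 to 1 without any 1 library. Of the folding and secretion genes, 8 were higher with age, 5 with no filter, 5 without trend and robust estimation and 3 to 9 without any 1 library; 8 were higher in the knockout comparison, and 5 to 13 without any 1 library. Of the B cell genes, 2 were higher with age, 1 with quantile normalization, 1 without trend and robust estimation and 1 to 7 without any 1 library. In the knockout comparison 2 were higher, 1 when rescaled, 1 with quantile normalization, 1 without trend and robust estimation, 14 with the replicate block and 0 to 2 without any 1 library. The causes were not tested. The share of Igha was 3.33%, 56.9% and 43.8% (2-month, 12-month control, Pdgfrb-KO) with secreted lengths, and 53.1% in the 12-month controls with no division by length. Without any 1 library it was 1.66% to 2.39%, 42.6% to 45.6% and 30.6% to 37.1%. The share of Igkc was then 89.9% to 91.5%, 96.1% to 96.4% and 95.8% to 96.5%. With 4 libraries a group and unknown depth, differences of Mzb1 and Ighe are at the limit of what these values can show.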
